A study of Mus musculus with 2 samples.

Results

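The transcripts described here read bright, and at nearly the same intensity, in 2 clones of mouse mesoangioblasts called D16 and D351. They were chosen by the measured values themselves. A probe set, the group of short probes that reports a transcript, was taken when it had 1 annotated gene, an intensity of 200 or more on both arrays and a larger value under 1.5 times the smaller. Control probe sets of the manufacturer were left out, as were gene symbols with any of 20 prefixes that mark large families, such as Zfp, Slc, Rab, Rpl and Rps. This gave 130 probe sets for 127 genes, out of 11868 probe sets that were not controls and 7717 of these with 1 gene. The reductase gene Spr entered with 3 probe sets and Cactin with 2.

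Each group is 1 clone read on 1 array. Both clones came from the dorsal aorta of C57BL6 embryos at embryonic day 9.5. The aorta was held as an explant for 5 days, its dissociated cells were cloned at limiting dilution over primary embryonic fibroblasts stopped with mitomycin C, and the clones were expanded on gelatin. The labels give neither clone a genotype, treatment or passage of its own, and total RNA of each was hybridized to array C of the U74 mouse set from Affymetrix. A single array per clone allows neither replicate nor test, so all values are descriptions, and the small number of arrays limits their precision. In such bulk RNA, a transcript at the same level in every cell and one at different levels in parts of the culture cannot be told apart.

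Mesoangioblasts are progenitor cells of the vessel wall that can give rise to several mesodermal tissues. A large share of the transcripts of any cell serve functions that every cell needs, such as transcription, RNA handling, protein transport, energy supply and protein turnover. Promoters of such genes usually lie in CpG islands, stretches where the dinucleotide CG has stayed frequent, and often lack a TATA box, the element that positions the polymerase at many tissue-restricted genes.

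The base composition of the promoter is a property the choice of members did not use, so 4 promoters are printed here. Each runs for 300 bases, from 250 before to 50 after a start site of the RefSeq promoter table (GRCm38.p6), the most upstream one where the table lists several, 5′ to 3′ on the strand of the gene. Capitals mark every CG and, in Sod1, the TATAAA as well. Polr2e (chr10:80039610-80039909, minus strand) had the highest mean log2 intensity of all members, and its window holds 32 CG. Ccdc88a (chr11:29373408-29373707, plus strand) was steady by each of its 3 probe sets, and holds 45. Sod1 (chr16:90220512-90220811, plus strand) is 1 of 4 members with a TATAAA in the window, beside 34 CG. Tbc1d21 (chr9:58370406-58370705, minus strand) had the lowest CG content relative to its base composition, with 1 CG. The last 50 bases of each window follow that start site. RefSeq gene bounds can reach further upstream than the site. The Ccdc88a gene begins at 29373405, so its whole window lies within the gene bounds, and the Tbc1d21 gene, which ends at 58370497, overlaps part of its window.
Polr2e: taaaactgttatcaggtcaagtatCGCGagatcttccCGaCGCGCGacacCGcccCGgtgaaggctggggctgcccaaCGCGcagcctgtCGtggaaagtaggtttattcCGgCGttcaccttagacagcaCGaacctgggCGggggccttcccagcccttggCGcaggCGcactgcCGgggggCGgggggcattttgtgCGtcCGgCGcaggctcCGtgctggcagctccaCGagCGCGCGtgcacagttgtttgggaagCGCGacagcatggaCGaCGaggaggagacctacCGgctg
Ccdc88a: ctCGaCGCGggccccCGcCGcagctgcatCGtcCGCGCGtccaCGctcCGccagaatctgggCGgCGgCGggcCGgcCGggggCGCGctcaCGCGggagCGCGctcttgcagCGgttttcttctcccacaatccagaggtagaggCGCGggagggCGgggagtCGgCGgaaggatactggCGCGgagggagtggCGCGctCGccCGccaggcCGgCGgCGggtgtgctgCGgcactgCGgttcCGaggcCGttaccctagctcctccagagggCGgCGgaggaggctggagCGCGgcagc
Sod1: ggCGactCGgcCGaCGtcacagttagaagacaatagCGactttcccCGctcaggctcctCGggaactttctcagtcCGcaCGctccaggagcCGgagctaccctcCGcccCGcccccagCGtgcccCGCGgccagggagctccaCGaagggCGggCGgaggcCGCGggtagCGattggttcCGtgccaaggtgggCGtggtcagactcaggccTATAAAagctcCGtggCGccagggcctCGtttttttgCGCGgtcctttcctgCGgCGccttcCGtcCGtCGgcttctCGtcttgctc
Tbc1d21: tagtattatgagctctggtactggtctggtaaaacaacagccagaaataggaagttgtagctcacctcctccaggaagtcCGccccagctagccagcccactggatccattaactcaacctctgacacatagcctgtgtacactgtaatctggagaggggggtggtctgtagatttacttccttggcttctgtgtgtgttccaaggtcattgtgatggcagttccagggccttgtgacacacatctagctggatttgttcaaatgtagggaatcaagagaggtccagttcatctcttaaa

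Members spanned a wide range of intensities, and most were much closer between the clones than the 1.5-fold limit required. In D16 the 130 values ran from 206.3 to 1668.1 with a median of 378.1. In D351 they ran from 209.8 to 1743.4 with a median of 360.3. The larger value was under 1.1 times the smaller in 49 probe sets (37.7%), the median fold was 1.14 and the largest 1.48. The log2 ratio, D351 minus D16, had a median of -0.03 and ran from -0.57 to 0.53. These values chose the members, so they describe the selection and show nothing beyond it.

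For scale, 141 of the 7717 probe sets with 1 gene (1.83%) met the intensity and fold limits before symbols were left out. Of the 211 that reached 200 on both arrays, called bright from here on, 66.8% were under 1.5-fold. Of the 3546 above a floor of 6.4 on both arrays, the median of all values, 61.8% were under 1.5-fold. By bins of the lower value, that share was 55.6% from 6.4 to 20, 65.6% from 20 to 50, 70.7% from 50 to 100, 64.9% from 100 to 200, 69.5% from 200 to 500, and 59.6% of the 57 probe sets at 500 or more. It did not climb steadily with intensity. Of the members, 60 (46.2%) read higher in D351 and 70 in D16, beside 45.5% higher in D351 among the 211 bright probe sets.

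**Figure D1:**
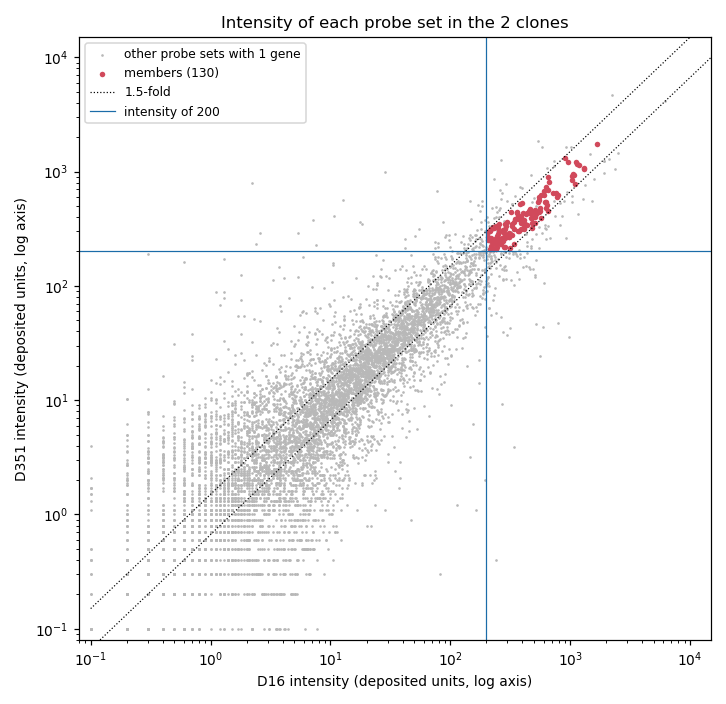
Intensity in D16 (x axis) against D351 (y axis) for every probe set with 1 gene and both values above 0, in deposited units on log axes; the 130 members are the larger red points. Blue lines mark an intensity of 200 and dotted lines a 1.5-fold difference, and the members fill the corner that these lines cut out, up to Polr2e at 1668.1 and 1743.4.

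In the scatter of both clones, the members are the upper right part of a cloud that widens at low values. Just inside the intensity limit lay Sh3pxd2a (206.3 in D16 and 252.1 in D351), 4930412O13Rik (206.5 and 269.2) and Arpin (207.9 and 295.1). Just outside it lay Urb2 (227.3 and 199), Nf2 (282 and 198.8), Fam219a (198.5 and 217.7), Krtap10-10 (214.9 and 197.7) and Prpf4b (198.5 and 196.4). Nearest to the fold limit were 1700017B05Rik (1.48-fold higher in D16) and Rrp15 (1.45-fold higher in D351). Anapc5, at 484.1 in D16 and 322.6 in D351, was the first past it towards D16, and Sipa1l1, at 329.2 and 521.7, the first towards D351. The 11 probe sets left out by symbol alone were those of Ehd2, Rps26, Ddx54, Colec12, Rplp2, Rnf213, Slc19a2, Cavin2, Ube2d1, Zfp369 and Arhgef40.

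Steadiness depends on the common scale of the arrays. The intensities were used as deposited. The 9 probe sets of the hybridization controls, bacterial and phage transcripts added in equal amount to each sample before hybridization, read a median of 1.59-fold higher in D16. Scaling both arrays to these controls moves the ratio of every probe set by 0.67 log2 towards D351. The members then had a median log2 ratio of 0.64, from 0.11 to 1.21, all 130 read higher in D351, and 56 (43.1%) were under 1.5-fold. Under quantile normalization, lowess centring or equal medians the median lay between -0.02 and 0.04, 126 to 130 members were under 1.5-fold and 62 to 69 read higher in D351. "Steady" therefore means steady relative to the other transcripts on the array, and which scale gives true RNA amounts was not tested. Probe sets for Actb, a cytoskeletal actin, and Gapdh, a glycolytic enzyme, among the manufacturer's controls were also within 1.5-fold as deposited. The 3 for Actb read 7771.3, 5203.9 and 6349.2 in D16 and 5985.2, 4824.2 and 6038.6 in D351. The 3 for Gapdh read 6397, 4616.8 and 5951.6 in D16 and 4573.2, 3733.4 and 4446.7 in D351. All 6 read higher in D16, by at most 1.40-fold.

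**Figure D2:**
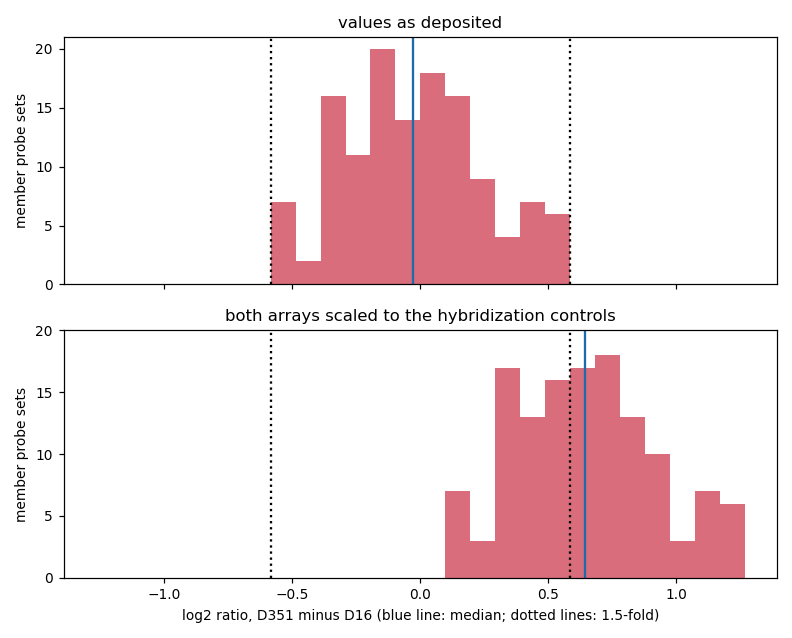
Number of member probe sets (y axis) by log2 ratio of D351 minus D16 (x axis), for the values as deposited (top) and for arrays set to equal hybridization controls (bottom); the blue line is the median and the dotted lines mark 1.5-fold. The median moves from -0.03 to 0.64, and the 130 members that lie between the dotted lines above are reduced to 56 below.

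The histogram pair shows a shift of the whole set with its width kept, since 1 factor is applied to every probe set. Genes are described next by role, as deposited. Roles were assigned by hand after the names were seen, for the 112 genes with a role known well enough, and the other 15 are given last. All genes were matched to RefSeq. A letter mark in the identifier of a probe set is described further below.

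The genes of transcription comprised 13 probe sets, 6 of them higher in D351 and 7 in D16. Polr2e, a subunit shared by the nuclear RNA polymerases, read 1668.1 in D16 and 1743.4 in D351. Foxp1, a forkhead transcription factor, read 909.4 and 1309, which is the widest gap of the group at 1.44-fold. Med6, a subunit of the Mediator complex that links activators to polymerase, read 643 in D16 and 509 in D351. Tsc22d2, of the TSC22 domain family, read 620.3 and 545.3. Gabpb1, the partner that completes the ETS-domain factor GABP, read 560.5 and 477.6. Rfx7, a winged-helix factor, read 395.6 and 528.6. The single-strand DNA-binding Fubp3 stood at 418.8 in D16 and 347.7 in D351. Some of these regulators differed hardly at all. Nfic, of the nuclear factor I family, read 329.5 and 335.1, the Krüppel-like factor Klf16 231.1 and 235.4, and Cdk12, a kinase of the polymerase tail, 217.5 and 221.8. The HMG-box factor Tox2 read 213.4 and 211.1. The zinc finger gene Plagl1, an imprinted locus, read 262.5 and 233.8, and Eapp, whose product binds E2F factors, 239.8 and 210.5.

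Chromatin and DNA repair genes gave 9 probe sets, 7 of which read higher in D16. Yeats4, which recognises acylated histones in chromatin remodelling complexes, read 1027.5 in D16 and 911.3 in D351. Trim28, the corepressor recruited by KRAB zinc finger proteins, stood at 573.6 and 391.9. Cxxc1, which binds unmethylated CpG as part of a histone methyltransferase complex, stood at 477.8 and 323.7. Trim28 and Cxxc1 were near the limit, at 1.46-fold and 1.48-fold higher in D16. Brd3, a reader of acetylated histones, was nearly identical at 427.8 and 425, as was the SUMO protease Senp1 at 384 and 381.2. Tada2b, an adaptor of the SAGA acetyltransferase complex, read 358.7 in D16 and 435.7 in D351. Hmces, which protects abasic sites in DNA, stood at 377.8 and 304.3. Yeats2 and Mbip, both of the ATAC acetyltransferase complex, read 251.6 and 237.9, and 218.5 and 245.8.

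RNA-binding and nucleolar genes gave 14 probe sets, 7 higher in each clone. Pcbp3, of the poly(C)-binding proteins, read 631.9 in D16 and 730.9 in D351. Cactin, which acts in splicing, had 2 members, at 550.9 and 561.2 by the first and at 249 and 287.2 by the other. The ribosome assembly GTPase Bms1 stood at 558.9 and 454. Trir read 550.2 in D16 and 446.7 in D351, and the mRNA-binding Serbp1 403.1 and 433.4. Dhx30, an RNA helicase, read 411.2 and 373.5, and Mettl2, a methyltransferase of transfer RNA, 360.7 and 440.8. Among factors of ribosome and small RNP assembly, Nol12 read 366.2 in D16 and 299.5 in D351, and Shq1 240.1 and 210.3. Rrp15 was the member with the highest ratio towards D351, at 213.9 and 309.6. The RNA-binding ubiquitin ligase Mex3a stood at 319 and 443.3, the decapping factor Patl1 at 310.5 and 289.4, and the cochaperone Pih1d1 at 244.4 and 219.3.

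The largest role was the mitochondrion with small-molecule metabolism, at 17 probe sets for 15 genes, 12 of them higher in D16. Micu2, which gates the mitochondrial calcium uniporter, read 1309.5 in D16 and 1067 in D351. Fis1, an outer membrane protein of mitochondrial fission, read 1174.1 and 1149.8. Mfn2, which fuses mitochondria, read 274.3 and 259.3, and Trak1, which ties them to motor proteins, 288.4 and 262.3. Fis1, Mfn2 and Trak1 lay under 1.1-fold apart between the clones, but the fold limit chose them, so this describes the selection. Of the respiratory enzymes, Cox5a, a subunit of cytochrome c oxidase, read 1096.5 in D16 and 772.4 in D351, and Idh3b, of the isocitrate dehydrogenase of the citric acid cycle, 1069.4 and 927.2. Sod1, the cytosolic superoxide dismutase, stood at 434.3 and 430.2. Spr, which completes the synthesis of tetrahydrobiopterin, read 1299.3 and 1058.6, 1045.9 and 957.1, and 460.5 and 460.6 by its 3 probe sets. The last of these had the ratio nearest 1 of all members. Pygb, a glycogen phosphorylase, read 450.4 in D16 and 451.8 in D351. Inositol phosphate enzymes were both higher in D16, with Nudt3 at 1031.6 and 842.1 and the kinase Ip6k2 at 508.5 and 358.5. Fpgt, of the fucose salvage route, read 377.1 and 408.4, Hibadh, of valine breakdown, 388.2 and 354.8, and the deoxycytidylate deaminase Dctd 256.8 and 293.4. Tmem65, of the inner mitochondrial membrane, stood at 370.6 in D16 and 407.1 in D351.

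Lipid enzymes gave 7 probe sets, 5 higher in D16. Fads3, of the fatty acid desaturase family, read 770.2 in D16 and 599.6 in D351. Abhd2, a lipid hydrolase, read 476.6 and 438.2, and Lta4h, which makes leukotriene B, 365.4 and 383.7. The secreted phospholipase Pla2g2f stood at 415.9 and 328.5 and the phosphoinositide phosphatase Mtmr4 at 308.7 and 270.3. Sgpp1, which removes the phosphate of sphingosine phosphate, read 219.8 in D16 and 313.8 in D351, while the transporter Abca5 read 281.7 and 218.1.

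The secretory route was represented from the endoplasmic reticulum to the cell surface by 11 probe sets, 5 higher in D351. Stt3a, the catalytic subunit of an oligosaccharyltransferase, read 957.7 in D16 and 1202.6 in D351. Mogs, which trims the first glucose from the attached glycan, read 411.9 and 315.1, and Man2a2, a Golgi mannosidase, 238.6 and 227.1. These 3 enzymes act in order on N-linked glycans. Gorasp2, which holds Golgi cisternae together, read 1132.9 and 1166.6, and the Golgi-associated Glipr2 1126.3 and 1223.1. Trappc11, of a tethering complex, read 284.8 and 272.4, and the exocyst subunit Exoc5 631.1 and 541.6. The Golgi kinase-like Gask1b stood at 296.2 in D16 and 279.7 in D351. Mbtps1, the protease that activates membrane-bound transcription factors, read 308 and 267.6, and the inactive rhomboid Rhbdf1 279.3 and 293.2. Fam3c, a secreted protein, was the exception in size at 212.9 and 303.4, or 1.43-fold higher in D351.

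Endosome, lysosome and autophagy genes gave 6 probe sets, 3 higher in each clone. Atp6v1f and Tcirg1 are subunits of the proton pump that acidifies these organelles, and they lay in opposite directions. Atp6v1f read 661.2 in D16 and 806.8 in D351, and Tcirg1 519.4 and 426.4. Atg101, of the complex that starts autophagy, read 509.4 and 403.1, and the adaptor subunit Ap5s1 237.1 and 256.2. The membrane-binding Anxa4 stood at 313.5 and 212.6 and Myof, a ferlin, at 216.7 and 260.4.

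In the ubiquitin system there were 6 probe sets, again 3 higher in each clone. Zfand3, a zinc finger protein with domains linked to ubiquitin binding, read 794.1 in D16 and 625.8 in D351. The ligases were represented by Ubr4, at 287.2 and 314.6, and by the scaffold Cul5, at 229.3 and 330.3. The deubiquitinases among the members read close together, as the fold limit required, with Otud6b at 315.8 and 287.1 and Otud3 at 267.6 and 262.4. Symbols with the prefix Usp, a large deubiquitinase family, were left out. Uchl3, another deubiquitinase, was bright but past the limit, at 583.5 in D16 and 287.9 in D351. The ubiquitin-like domain gene Ubtd1 stood at 299.5 and 362.1.

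Cytoskeletal genes gave 7 probe sets, 5 higher in D351 as deposited. Myl12a, a regulatory light chain of non-muscle myosin, read 656.5 in D16 and 894.5 in D351. Motor subunits lay closer, with the dynein light chain Dynlt3 at 648.9 and 694.3 and the kinesin light chain Klc1 at 511.7 and 462.9. Epb41l1, which links membrane to spectrin and actin, read 543.5 and 546, while a further probe set, at 18.4 and 10.1, read higher in D16. Another, at 8.1 and 3.7, lay within the range of control probe sets for transcripts absent from mouse cells. Ccdc88a, an actin-binding protein of migrating cells, read 459 and 435.4. Arpin, an inhibitor of the Arp complex that branches actin, stood at 207.9 and 295.1. Sh3pxd2a, a scaffold of podosomes, stood at 206.3 in D16 and 252.1 in D351.

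Signalling and survival genes gave 9 probe sets, 5 higher in D351. Mcl1, which blocks apoptosis, read 566.8 in D16 and 628.4 in D351. Prkaca, the catalytic subunit of protein kinase A, read 390.4 and 398.2, and Gskip, which ties protein kinase A to GSK3, 378.4 and 517.3. Mast4, a kinase of the microtubule-associated group, stood at 656.8 and 449.8, and Stk24, of the Ste20-like kinases, at 249.1 and 320.3. The receptor adaptor Grb14 read 437.1 in D16 and 342.8 in D351, and the calcineurin regulator Rcan2 231.2 and 209.8. Ier5l read 768.3 and 650.6, and the small thioredoxin-fold protein Sh3bgrl3 256.7 and 350.4.

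Surface, adhesion and matrix genes gave 7 probe sets, 4 higher in D351. Htra1, a secreted protease of the matrix, read 608.3 in D16 and 676.3 in D351. Lama4, a laminin chain of vessel basement membranes, read 277.2 and 248.9. Nradd, related to the neurotrophin receptor, stood at 544.7 and 600.4. The cadherins among the members were nearly level, with the protocadherin Pcdh18 at 387 and 394.2 and Cdh24 at 220 and 210.9. A further probe set of Pcdh18 read 3 and 0.7, below the floor. Another protocadherin, Pcdhb17, was bright but past the fold limit, at 210.5 in D16 and 334.7 in D351. Lrrc8c, a subunit of volume-regulated anion channels, read 391.9 in D16 and 312.2 in D351, and Flrt3, a transmembrane guidance ligand, 285.1 and 350.5.

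The 7 member probe sets of cycle and centrosome genes lay at most 1.19-fold apart between the clones. Mcm5, of the replicative helicase, read 252.4 in D16 and 260.9 in D351, and Gins1, which joins that helicase, 327.9 and 277.2. Cdk14, a cyclin-dependent kinase of the membrane, read 605 and 620.7. The centrosomal Cep20 stood at 328.9 and 346.1 and Cep44 at 274.5 and 306.6. Spdye4b, of the Speedy family, read 467.4 and 393.7, and Txlna, a syntaxin-binding taxilin, 253.3 and 242.6. Non-coding transcripts were 4 of the 130 probe sets, per RefSeq. Pvt1, the long non-coding neighbour of Myc, read 348.3 in D16 and 382 in D351. Snhg18, a host gene of small nucleolar RNA, stood at 286.1 and 217.9. The loci 2610307P16Rik and 4930412O13Rik stood at 242.5 and 337.4, and at 206.5 and 269.2.

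The 15 genes without an assigned role held further locus names and little-studied membrane proteins. Ttc13, with tetratricopeptide repeats, read 723.1 in D16 and 647.2 in D351. Tmem256 read 622.9 and 479.3, Tmem248 479.1 and 355.8, and Tmem218, a protein of the ciliary transition zone, 290.4 and 337.4. The coiled-coil genes Ccdc74a and Ccdc97 read 461.7 and 474, and 337.1 and 362.8. Tbc1d21, a TBC domain gene known from the testis, read 245.2 in D16 and 273.3 in D351, and Pramel12, of the PRAME family, 243.6 and 246.1. Both thus passed the intensity limit in cells grown from the aorta. Beside the non-coding loci above, locus names covered the rest: 2410002F23Rik (476.5 and 395), 1700018B08Rik (392.1 and 366.4), Gm6588 (340.6 and 316.1), 1700017B05Rik (341.2 and 230.6) and Gm2115 (229.5 and 319.1).

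**Figure D3:**
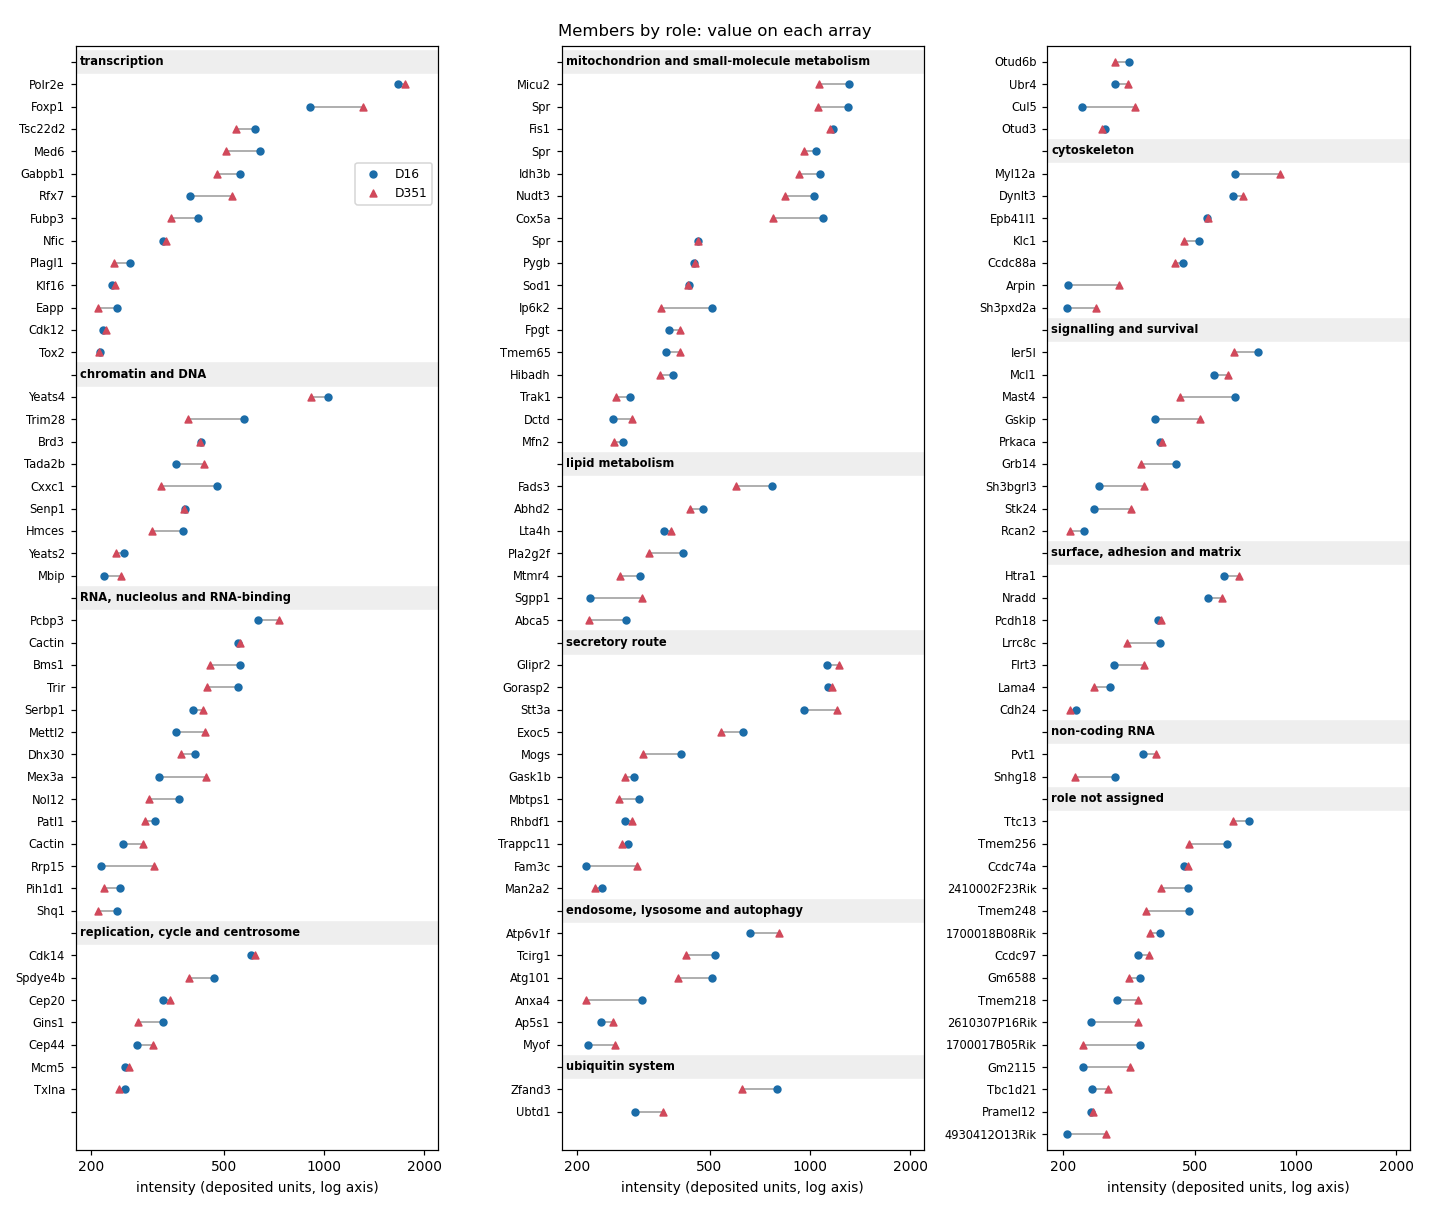
Intensity on a log axis (x axis, deposited units) of each member probe set (1 line each), grouped by role, with D16 as a blue circle, D351 as a red triangle and a grey bar between them. The bars of the cycle and centrosome group are short, at most 1.19-fold, while Rrp15, Cul5, Trim28 and Anxa4 have bars of 1.44-fold or more.

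The plot of members by role shows short and long bars side by side in most roles. The bars of the cycle and centrosome group are all short, but the fold limit chose these probe sets. On the list of cell cycle, DNA replication and repair, 4 of 6 bright genes (66.7%) were under 1.5-fold, beside 66.3% over all genes. Past the limit on that list were Cep170b, at 267.9 in D16 and 645 in D351, and Anapc5. In some roles most bars pointed 1 way, such as 7 of 9 towards D16 for chromatin and DNA, 12 of 17 towards D16 for the mitochondrion and 5 of 7 towards D351 for the cytoskeleton. Over the 211 bright probe sets 45.5% read higher in D351, the groups are small, the 17 include 3 probe sets of Spr, and differences between roles were not tested. With the control scaling all bars point to D351.

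Set against functional lists, the members were spread over many functions. Of the 5928 genes on the array with a probe set of their own, 127 were members, or 2.14%. Among 18 lists, 63 member genes were found on at least 1 list and 64 on none. The share was 5.31% for lipid and sterol metabolism (6 of 113 genes), 5.07% for protein degradation (7 of 138) and 5% for apoptosis, stress response and iron (2 of 40). It was 4.35% for secretory transport (5 of 115), 4.32% for transcription factors and polymerase machinery (7 of 162) and 4.03% for mitochondrion and energy (5 of 124). Kinases, phosphatases and small GTPases had 5 of 273 genes, or 1.83%, and chromatin 2 of 111, or 1.8%. Receptors and membrane proteins had 7 of 302, or 2.32%. The matrix had 1 of 70, Lama4. Chaperones had 0 of 58 and nucleocytoplasmic transport 0 of 26. The remaining lists lay between 2.47% and 3.74%, and with so few members per list, differences between these shares were not tested. List counts include genes with a prefix that was left out, such as Ndufs8 for the mitochondrion and Fbxw9 for protein degradation. Such genes could not be members, which lowers the share of a list that holds them. For RNA splicing, processing and export, 5 bright genes of any symbol were under 1.5-fold and 4 were members.

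Bright genes of the same lists that passed the fold limit show what steadiness left out. Of the 205 genes whose probe set of highest mean log2 intensity was bright on both arrays, 32 were past 1.5-fold towards D351 and 37 towards D16. These include Sh3bgrl3 (345.4 in D16 and 617.4 in D351) and Ip6k2 (616.5 and 342), which were members by a dimmer probe set. Fads2, of the same desaturase family as the member Fads3, read 1159.6 in D16 and 426.6 in D351. Nfia, of the same family as the member Nfic, read 626 and 257. The actin cross-linker Flnc read 2384.6 and 1048.4, and Fth1, the heavy chain of ferritin, 2529.2 and 1456.8. Nup62, of the nuclear pore, was the 1 bright gene of its list, at 919.7 in D16 and 261.7 in D351. Towards D351 lay Bgn, a matrix proteoglycan, at 2238.3 and 4679.7, and the ribosome assembly factor Pes1 at 585.9 and 1629.2. Relatives of a steady gene by family were thus not always steady themselves.

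None of the cell type markers looked up was a member. The array held 3 of 15 mesoangioblast and vessel wall markers. Itgb1, the shared beta chain of many integrins, read 124 in D16 and 131.4 in D351, close between the clones but under 200. Acta2 stood at 4.7 and 15.4 and Kdr at 1.6 and 9.5, both below the floor in D16. The label of the cells could therefore not be checked through the members. For the feeder cell type, 4 of 14 fibroblast markers were on the array, all read higher in D351, and the 1 above 200 on both, Col5a1, stood at 543.2 and 1838.3. The array held 8 of 17 smooth muscle markers, Acta2 among them. Itga8 read 77.6 in D16 and 678.3 in D351, Synpo2 24.7 and 105.2, Ppp1r12a 60.2 and 148.6 and Lmod1 2.6 and 288.2. Flnc read higher in D16. Tpm1 stood at 13.4 in D16 and 10.2 in D351, under 1.5-fold apart. Its D351 value lay within the range of control probe sets for transcripts absent from mouse cells. Myocd, at 1.9 and 4.1, was below the floor on both arrays. Of the endothelial markers Flt1 stood at 1.3 and 87.6 and Egfl7 at 19.5 and 3.8. Of 1 haematopoietic, 2 epithelial and 3 neural markers on the array, none reached 200. The haematopoietic Laptm5 (18.8 in D16 and 19.4 in D351), the epithelial Epcam (37.9 and 52.1) and the neural Elavl3 (9.5 and 11.8) were above the floor on both arrays. Krt14, Gfap and Nes were at or below it on both. The part of other cells in the members' values was not tested.

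Further probe sets of the member genes gave a reading that did not choose them, and they were mixed: some near background, some steady and some unequal between the clones. For 54 of the 127 genes the array held 78 other probe sets that were not members. At or below the floor on both arrays were 29 of the 78 (37.2%), beside 39% of all 7717 probe sets. Another 6 were above the floor on 1 array. Above it on both were 43, of which 29 (67.4%) were under 1.5-fold, beside 62.9% of 1450 probe sets above the floor from any gene with more than 1. Of the other 14, 4 read higher in D351 and 10 in D16. Steadiness of the further probe sets was thus close to what the array gave in general. Among the 78 genes that were bright but not members, 10 of 22 such probe sets (45.5%) were under 1.5-fold. These 78 include the genes left out by symbol alone, which were steady. A further probe set that was bright and steady would itself be a member, so the choice of members removed such cases from these counts.

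Several genes were steady by further probe sets too. Ccdc88a read 459 and 435.4 by the member, and 198.6 and 192.5, and 88.5 and 81.2, by its further probe sets. Gabpb1 read 560.5 and 477.6 by the member, then 140.4 and 125.3, and 77.3 and 106.7. In Nradd the further probe set stood at 153.7 in D16 and 158.5 in D351. Pramel12, a gene of a family best known from germ cells, repeated its signal with 137.3 and 163.6. For Patl1 the further values were 69.1 and 68.4, for Gm2115 75.5 and 71, and for Otud3 61.9 and 84.3. The further probe set of Patl1 was annotated to the same sequence record as its member, so it is not a separate target. The same holds for a further probe set each of Atg101, Cdk12 and Sh3pxd2a. Yeats4 had 173.6 and 190.1 by a further probe set and 3.5 and 8.7 by another. Gorasp2 had 104.1 and 106.4, but another of its probe sets read 18.5 and 11.6, past the limit at 1.59-fold.

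Other genes were steady by the member and unequal by a further probe set. Flrt3 read 285.1 in D16 and 350.5 in D351 by the member. Its further probe sets read 91.6 and 38, and 114.3 and 35.4, which is 2.41-fold and 3.23-fold higher in D16. The direction of Flrt3 thus differed between its probe sets. Pih1d1 read 211.7 and 150.6 by 1 further probe set and 79 and 24.7 by another, the last 3.20-fold higher in D16. Ip6k2 read 616.5 in D16 and 342 in D351 by a bright further probe set, 1.80-fold, in the direction of its member, but 20.6 and 32.4 by another, 1.57-fold higher in D351. Sh3bgrl3 read 345.4 and 617.4, 1.79-fold higher in D351 and also in the direction of its member. Trir stood at 115.9 and 60.8, Serbp1 at 17 and 37, and Myl12a at 49.8 and 81. For these genes, steady between the clones holds for the member probe set and not for the gene as a whole.

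In 18 of the 54 genes (33.3%) every further probe set lay at or below the floor on both arrays. Fis1 read 1174.1 in D16 and 1149.8 in D351 by the member and 3.9 and 3 by the other. Dhx30 read 411.2 and 373.5 against 0.6 and 2.9, and Cul5 229.3 and 330.3 against 1.3 and 0.1. For Tbc1d21 the further probe set read 1.3 and 2. Levels of different probes cannot be set against each other as amounts of RNA, but values at the floor mean that the signal of these genes rested on 1 probe set. The 19 control probe sets for transcripts absent from mouse cells had a median of 1.9 and reached 11.2, and in 20 genes all further values lay within that range. Among bright genes that were not members, including those left out by symbol alone, 5 of 27 (18.5%) had no further probe set above the floor.

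**Figure D4:**
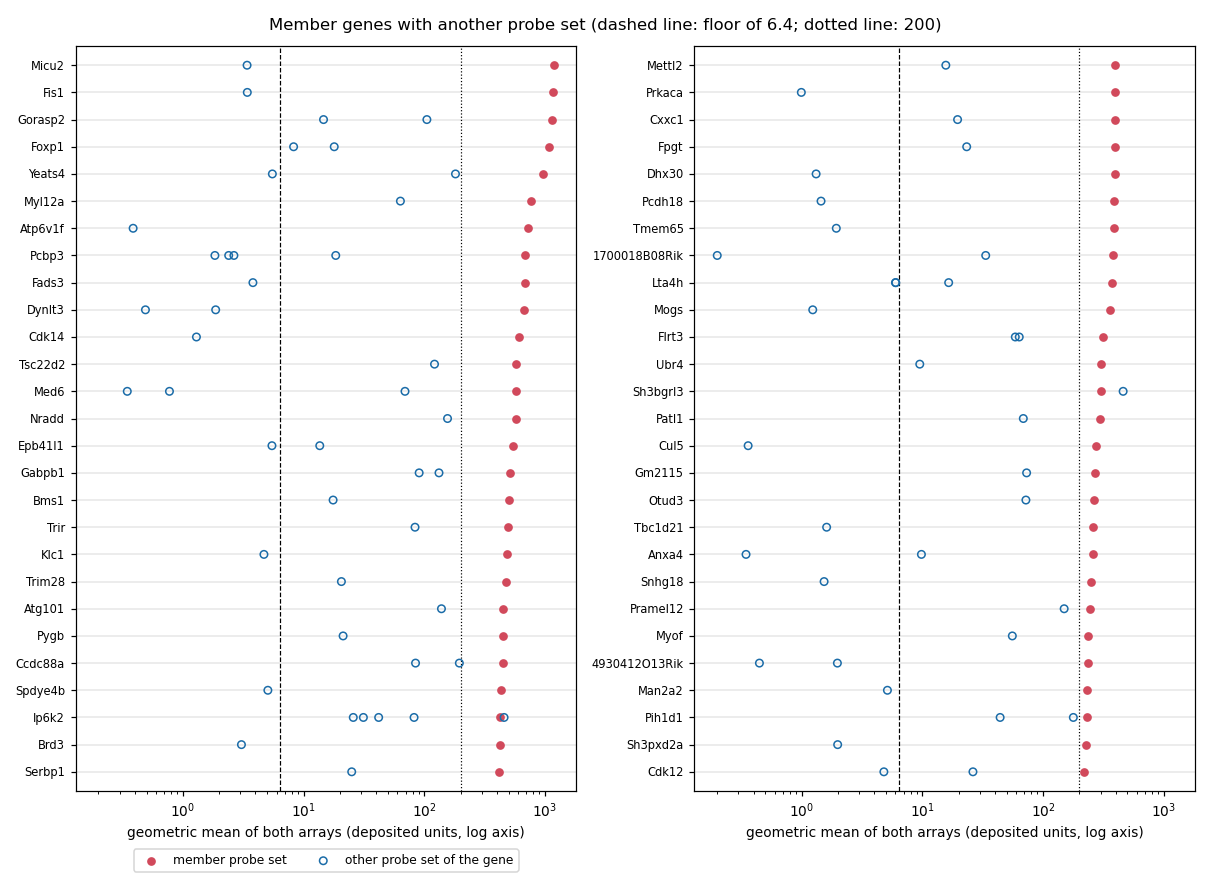
Geometric mean of the intensities on both arrays (x axis, deposited units, log axis) for the 54 member genes with a further probe set, 1 gene per line; filled red points are the members and open blue circles the other probe sets. The dashed line is the floor of 6.4 and the dotted line 200; 29 of the 78 open circles belong to probe sets at or below the floor on both arrays, and the circles of Sh3bgrl3 and Ip6k2 lie past 200.

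The plot of further probe sets shows how often a gene's open circles lie left of the dashed line while its filled point lies right of the dotted line. Probe set identifiers carry letter marks that bear on this. By the naming of the manufacturer, f denotes probes shared by a sequence family, s probes common to several transcripts, i an incomplete set of probes and r a set for which design rules were relaxed. Of the 130 members, 97 (74.6%) carried a mark, 63 of them f, 15 i, 14 r and 5 s. Of the bright probe sets that were not members 66.7% did. Of those above the floor but not bright the share was 40%, of those at or below the floor 45.3%, and of all 7717 it was 43.0%. By letter, 921 of all 7717 probe sets carried f, 957 i, 1311 r and 103 s. The marks f and s thus went with brightness, while i and r did not. A probe set marked f or s can read several transcripts at once. The 33 members without a mark had a median log2 ratio of -0.01, and the 97 with one -0.06. Among the unmarked were Cox5a, Fads3, Ier5l, Mast4, Tsc22d2, Abhd2, Ccdc88a and Senp1. The part of shared probe sequence in the brightness of the members was not tested.

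Promoters of the members were richer in CG than those of the array as a whole. Of the 127 genes, 109 had a window in the RefSeq promoter table, and 88 of these had a single start site. Called CpG-rich here is a window with at least 50% G and C and at least 0.6 of the CG expected from its base composition. Of the member promoters 92 (84.4%) were CpG-rich. The share was 72.3% for genes bright but not members, 62.2% for genes above the floor but not bright, 43.2% for genes at or below the floor and 56.5% for all genes on the array. Over all 27025 genes of the table it was 34.1%. The median G and C content was 63.7% for members, 55.7% for genes at or below the floor and 52.7% for the table. The median observed over expected CG was 0.79 for members and 0.54 for genes at or below the floor, while bright genes that were not members had 0.82. These are descriptions without a test, and counted over all start sites of the table in place of 1 per gene the share was 75.2% for members, 63.5% for bright genes that were not members and 53.6% for the array.

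Of the printed windows, Polr2e, Ccdc88a and Sod1 were CpG-rich and Tbc1d21 was not, with an observed over expected CG of 0.0588. Other members outside the class were Tmem248, Pla2g2f, Rcan2, Gm6588, Gask1b, 1700018B08Rik, Dynlt3, Flrt3, Mbip and, closer to the limits, Foxp1, Exoc5, Spr, Nol12, Dctd, Tmem218 and Myof. Flrt3, unequal by its further probe sets, is in this minority of 17. The other genes named above as unequal by a further probe set were CpG-rich, namely Pih1d1, Ip6k2, Sh3bgrl3, Trir, Serbp1, Myl12a, Gorasp2 and Epb41l1.

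Exact words of promoter motifs were then looked up on both strands. TATAAA occurred in 4 of 109 member promoters (3.67%), those of Sod1, Cul5, Nol12 and 2410002F23Rik. The share was 13.8% among bright genes that were not members, 8.35% over the array and 14.2% over the table. The GC box, GGGCGG, was in 75.2% of member promoters, 69.2% of the bright genes that were not members, 55.3% over the array and 35.9% over the table. This word contains a CG, so it is not independent of the CG content. CCAAT was in 30.3% of member promoters and in 38.5% over the array. The ETS word CCGGAAG, which GABP and related factors bind, was in 17.4%, beside 14.4% over the array and 9.14% over the table. Med6, Bms1, Idh3b, Fis1, Mcl1 and Tada2b were among the 19 members that hold it. The cyclic AMP response element TGACGTCA was in 2.75% (3 members, Klc1, Mcm5 and 4930412O13Rik) beside 2.63% over the array, and the E-box CACGTG in 8.26% beside 8.5%. The palindromic word of NRF1 was in 1 member promoter (Yeats4) and the CArG box, the site of serum response factor in muscle genes, in 1 as well (Glipr2), at 0.917% beside 1.69% and 1.28% over the array. The words with a CG overlap in content, and a match is only a match of letters.

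**Figure D5:**
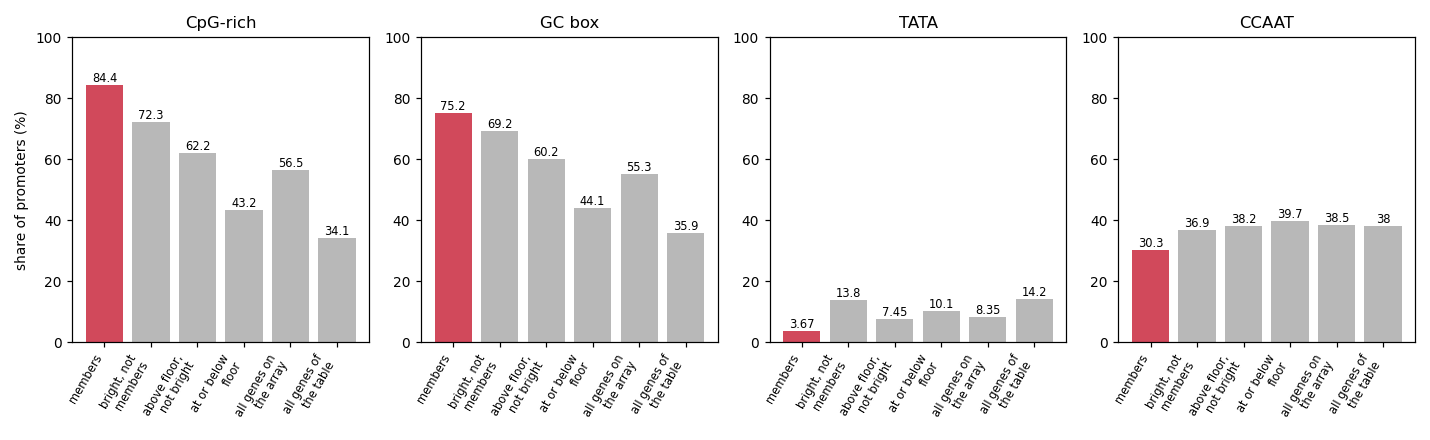
Share of promoters (y axis, percent) that are CpG-rich or hold a GC box, a TATA word or a CCAAT word, for the members (red) and 5 comparison sets of genes (grey). Members have the highest bars for CpG-rich (84.4%) and GC box (75.2%) and the lowest for TATA (3.67%) and CCAAT (30.3%).

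The bars for CpG-rich promoters and the GC box step down from members to bright non-members, to genes above the floor and to genes at or below it. For TATAAA the members stand lowest and the bright non-members above the array, at 9 of 65 promoters. Members came from every autosome and the X chromosome, with 14 of the 473 array genes of chromosome 2 (2.96%) and 11 of 313 on chromosome 6 (3.51%). On chromosome 1, 1 of 353 array genes was a member (Rrp15, 0.283%), and on the X chromosome 1 of 196 (Dynlt3, 0.51%), beside 2.14% over all genes on the array.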

How the data were processed

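The authors deposited 1 linear intensity per probe set and array, for 11934 probe sets on 2 arrays. Their software, scaling and detection calls were not given in the sources analysed here, so the deposited values were used unchanged. Array values carry no read depth, and having so few arrays limits the precision. Gene names came from the platform annotation, which left 4001 probe sets unnamed and gave 150 several genes. The members, the gene lists, the roles and the promoter words were chosen with earlier results of these data known. The floor of 6.4 is the median of all values that are not controls. Every member could be named, and from each list up to 3 bright genes past the limit in each direction. Promoters came from the RefSeq table (GRCm38.p6), where 18 member genes had no entry. Protein lengths, planned as a further property, were not analysed here. Alternatives were other limits, scalings, floors, unmarked probe sets and 1 probe set per gene. Scripts were tested on simulated data and ran in Python 3.11.15 (matplotlib 3.10.9, statsmodels 0.14.6, scipy 1.17.1, pandas 2.3.3, numpy 2.4.6). With 1 array per clone no test was made.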

Additional observations from a re-analysis of the deposited data

How the results depend on the processing

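The member count of 130 probe sets came to 277 with an intensity minimum of 100, to 46 with a minimum of 400 and to 33 with only unmarked probe sets. Members on functional lists moved with it, from 63 genes to 121, 27 and 14. Scaled to the hybridization controls, the median log2 ratio of the members was 0.64 in place of -0.03. The rule then chose 92 probe sets, 52 of them shared with the 130. The share of further probe sets within the limit, 67.4%, was 90.7% with a limit of 2-fold, which widens the class by construction, and 43.2% with the control scaling, an alternative chosen after seeing the data. The CpG-rich share of 84.4% was 75.2% over all start sites, also chosen after seeing the data. Why the control scaling differs was not tested. The other 24 values of these results stayed within 1.5 times of the main count, or close to the main share or median. Of the values per list or per promoter word under these alternatives, 150 moved less than those bounds and 62 moved more. No paired analysis was possible because each clone has 1 array and no test was made. Values near the floor, within the range of the negative controls up to 11.2, carry no order.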
